A study of Mus musculus with 16 samples.

Results

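A set of 10 genes of the bone morphogenetic protein (BMP) pathway were followed, chosen by their symbols: the ligands Bmp2, Bmp4 and Bmp7, the secreted antagonist Grem1, the pseudoreceptor Bambi, the type I receptor Bmpr1a, the inhibitory Smad6, and the target genes Id1, Id2 and Id3. All 10 were among the 27179 entries of the deposited table and all 10 were among the 14005 genes tested, those with a normalized count of at least 10 in at least 4 libraries. Bmp7 passed that filter only through the DPP4_pos libraries.

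The data were bulk RNA sequencing of stromal cells sorted as PDGFRb+ from the inguinal white fat of C57BL/6 mice and split into 2 populations of adipocyte precursor cells (APCs), DPP4_neg and DPP4_pos. DPP4 is a cell surface peptidase that marks the interstitial progenitors of fat depots. Both populations were grown in culture, in a medium that the labels spell DMSO/F12, with 10% serum and antibiotics. For 4 h before harvest they were given PBS as the vehicle or isoproterenol, which the labels put at 10 mM. Isoproterenol is a synthetic catecholamine that acts on beta-adrenergic receptors and raises cAMP. The 4 groups were DPP4_neg with vehicle, DPP4_neg with isoproterenol, DPP4_pos with vehicle and DPP4_pos with isoproterenol, with 4 libraries each. The labels do not say whether libraries of a group came from separate mice or separate dishes, so the p-values reflect only how these libraries vary, and that variation may be technical.

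BMP ligands are secreted dimers that bring together type I and type II serine/threonine kinase receptors. The receptors phosphorylate SMAD1, SMAD5 and SMAD9, which move with SMAD4 to the nucleus and switch on genes such as those of the Id family, whose proteins bind E proteins and keep them from DNA. Secreted antagonists of the gremlin, noggin and follistatin type bind the ligands outside the cell, and BAMBI and SMAD6, themselves targets of the pathway, damp it at the receptor. In fat, BMP4 and BMP2 are known for committing precursors to the adipocyte lineage and BMP7 for promoting brown and thermogenic adipocytes. Only RNA was measured here, so none of the values below is a level of protein or of phosphorylated SMAD.

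Each library held 9823799 to 28627223 reads in genes. The sort was visible in the RNA. Dpp4 stood between 15.3 and 24.6 normalized counts in DPP4_neg vehicle libraries and between 2853 and 3227 in DPP4_pos vehicle libraries. Pdgfrb, the sort marker of the whole culture, averaged 11315 and 7562 normalized counts in the same groups. The adipocyte markers Adipoq, Plin1, Cidec, Lep, Fabp4 and Pparg were summed to describe the adipocyte transcripts of the cultures. Their sum ran from 30077 to 34688 in DPP4_neg with vehicle, from 11996 to 14250 in DPP4_neg with isoproterenol, from 11373 to 12803 in DPP4_pos with vehicle and from 3920 to 4630 in DPP4_pos with isoproterenol. Of its 6 genes 5 were tested, and all 5 were lower with isoproterenol in each population and lower in DPP4_pos than in DPP4_neg. Fabp4 and Adipoq made up most of the sum, with means of 19145 and 7933 in DPP4_neg with vehicle. Lep was near the floor in every group. Its means were 0.618 normalized counts in DPP4_neg and 0.881 in DPP4_pos with vehicle, and it was at 0 in every library with isoproterenol. The summed level of 9 macrophage and leukocyte markers ran from 432 to 954 and from 744 to 1779 normalized counts in DPP4_neg with vehicle and with isoproterenol, and from 553 to 991 and from 627 to 1364 in DPP4_pos. Of the 9, 3 were called higher with isoproterenol in DPP4_neg and 2 in DPP4_pos, and none lower. Csf1r averaged 175 in DPP4_neg with vehicle and 693 with isoproterenol, while Ptprc averaged 7.16 and 8.65. The part of these markers in the results below was not tested. In bulk libraries, fewer cells of a type and less RNA per cell cannot be told apart.

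Among the members, the answer to isoproterenol was mostly a loss of transcript in DPP4_neg cells and a mixed one in DPP4_pos cells. In DPP4_neg cells Bambi rose and 7 of 10 members fell (Bmp2, Bmp4, Bmpr1a, Smad6, Id1, Id2 and Id3), by limma with Benjamini-Hochberg adjustment over all 14005 genes and a threshold of 0.05. The fit also called Bmp7 higher there, but on 0 against 7 reads and through a filter that it passed only in DPP4_pos, so it is not counted as a rise. The response reached far into the transcriptome, since 32.1% of all tested genes rose and 33.6% fell. The members' median log2 change was -0.67, against -0.02 over all tested genes. The same median was obtained with Bmp4 and Bmp7 at the read ratio and lower bound given below. Both genes kept their side of the median, so the swap could not have changed it. In DPP4_pos cells 3 members rose (Bmp4, Bmp7 and Bambi) and 5 fell (Grem1, Bmpr1a, Smad6, Id1 and Id3), against 39.4% of all tested genes higher and 43.3% lower. The median there was -0.18, against -0.05 over all tested genes. The libraries with and without isoproterenol did not overlap for 2 higher (Bambi, and Bmp7 on those 7 reads) and 7 lower members in DPP4_neg, where 28.2% and 30.6% of all tested genes behaved so. They did not overlap for 3 higher and 5 lower members in DPP4_pos, against 37.5% and 40.4% of all tested genes. Whether the number of members called sets the pathway apart from a background of that size was not tested. The sizes and directions of the single genes are what the data give.

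**Figure D1:**
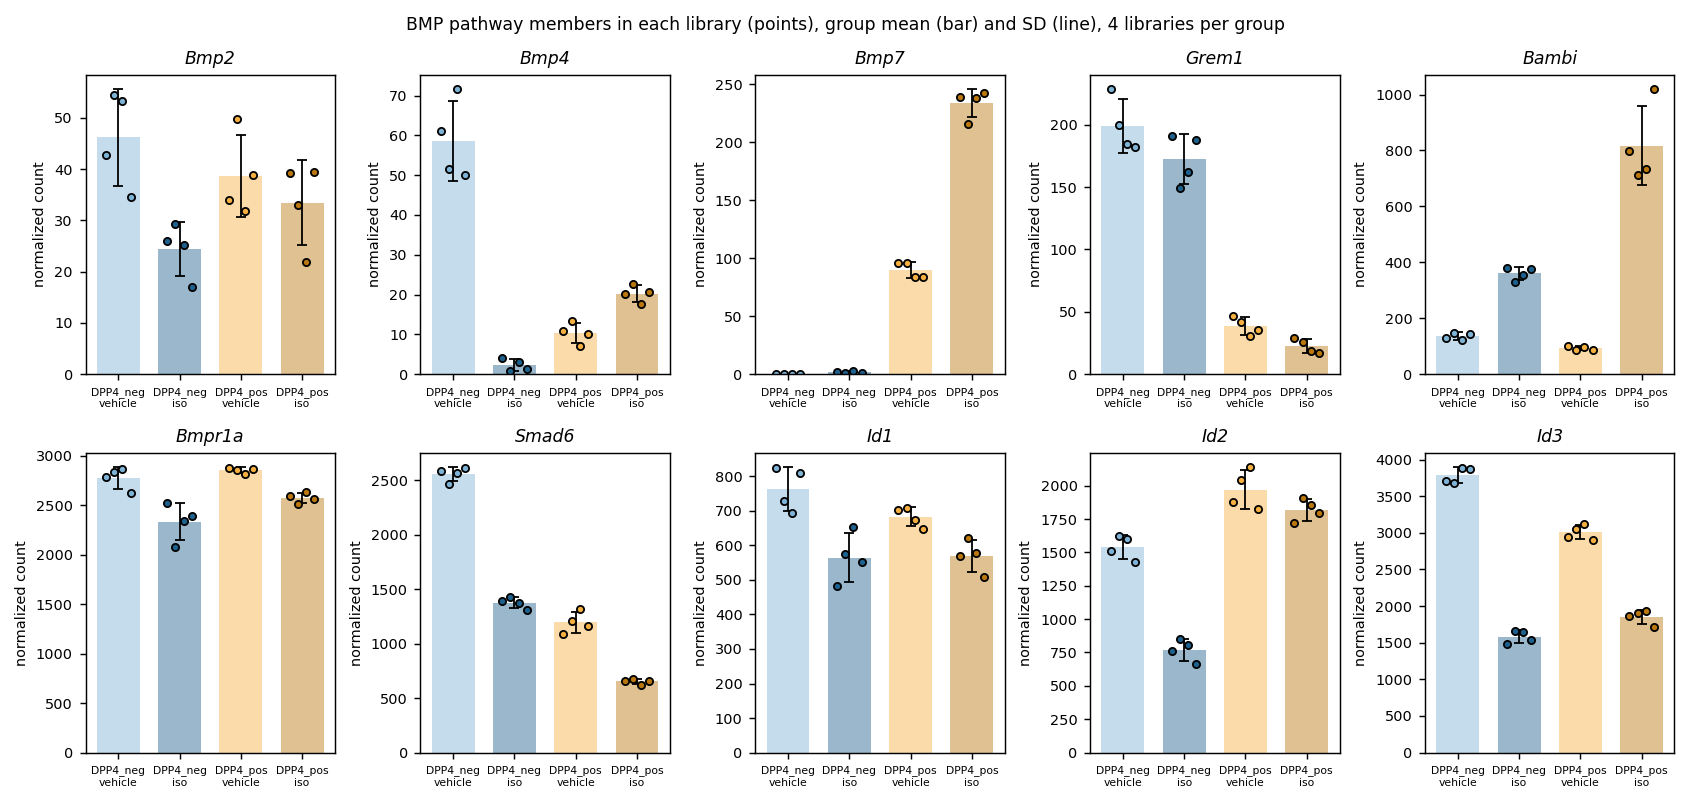
Normalized count of each of the 10 members (vertical axis, linear, starting at 0) in the 4 groups (horizontal axis, iso for isoproterenol). Points are libraries, bars are means of 4 libraries and lines are SD. Bmp4 lies at 50.1 to 71.7 in DPP4_neg with vehicle and at 0.734 to 4.05 with isoproterenol, Bmp7 is near 0 in both DPP4_neg groups, and Bambi is highest in DPP4_pos with isoproterenol.

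Sequence upstream of the genes that fell in DPP4_neg cells was available from RefSeq for Bmp4 and for the targets Smad6, Id2 and Id3, and is shown because these 4 had the largest falls there among the members with a sequence. Each window runs 5′ to 3′ on the strand of its gene, from 250 bases before to 50 bases after the annotated start, on build GRCm38.p6. Capitals mark matches, on either strand, to the letters searched: TGACG (the core of a cAMP response element, the motif of the CREB factors that cAMP and protein kinase A activate), GTCTAGAC (a palindromic SMAD motif), CAGAC (the CAGA box of SMAD3 and SMAD4) and GGCGCC (a GC-rich motif of the BMP-regulated SMADs).
Id2, chr12:25096043-25096342, minus strand: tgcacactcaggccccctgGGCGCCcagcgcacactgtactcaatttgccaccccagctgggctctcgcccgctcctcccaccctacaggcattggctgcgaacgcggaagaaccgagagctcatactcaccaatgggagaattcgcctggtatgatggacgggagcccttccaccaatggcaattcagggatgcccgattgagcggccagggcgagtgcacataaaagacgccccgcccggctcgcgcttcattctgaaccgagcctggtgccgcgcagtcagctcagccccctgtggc
Id3, chr4:136143572-136143871, plus strand: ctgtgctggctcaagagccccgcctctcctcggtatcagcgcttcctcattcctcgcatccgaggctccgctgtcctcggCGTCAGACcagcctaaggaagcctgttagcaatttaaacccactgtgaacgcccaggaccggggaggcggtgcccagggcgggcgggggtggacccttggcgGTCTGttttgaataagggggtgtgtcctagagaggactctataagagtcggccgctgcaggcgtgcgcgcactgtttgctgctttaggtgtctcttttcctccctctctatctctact
Smad6, chr9:64022010-64022309, minus strand: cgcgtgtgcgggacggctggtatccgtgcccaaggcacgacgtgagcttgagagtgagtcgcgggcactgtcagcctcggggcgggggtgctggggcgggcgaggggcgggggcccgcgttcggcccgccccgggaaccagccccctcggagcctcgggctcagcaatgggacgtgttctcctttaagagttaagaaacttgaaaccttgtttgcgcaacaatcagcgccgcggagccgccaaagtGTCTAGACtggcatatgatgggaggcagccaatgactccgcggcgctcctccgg
Bmp4, chr14:46390620-46390919, minus strand: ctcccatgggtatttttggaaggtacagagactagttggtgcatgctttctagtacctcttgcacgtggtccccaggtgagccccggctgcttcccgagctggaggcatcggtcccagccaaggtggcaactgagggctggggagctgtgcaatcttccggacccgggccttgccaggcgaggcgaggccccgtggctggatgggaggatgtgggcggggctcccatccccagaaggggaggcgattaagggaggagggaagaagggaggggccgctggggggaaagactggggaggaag

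Of the 10 members, 6 had such a window (Bmp4, Grem1, Bmpr1a, Smad6, Id2 and Id3). The whole cAMP response element TGACGTCA was in none of the 6, and in 1.79% of the 32851 windows of that length in the RefSeq table. Its core TGACG was in 1 of the 6, Id3, where it begins at base 81 of the window on the opposite strand and shares 2 of its bases with the CAGA box that begins at base 84. The core was in 20.8% of all windows. The palindromic SMAD motif was in 1 of the 6, Smad6, beginning at base 247 and so spanning the annotated start, while only 0.213% of all windows held it. The CAGA box was in Id3 and Grem1, 2 of the 6, and in 49.6% of all windows. The GC-rich motif was in 3 of the 6, Id2, Grem1 and Bmpr1a, and in 11.9% of all windows. The Bmp4 window held none of these letters. These are matches of letters within 300 bases. They are not measured binding, and enhancers farther away were outside the windows.

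Bmp4 was the one ligand among the members whose RNA moved in opposite directions in the populations. It encodes a ligand of the decapentaplegic type that signals through BMPR1A and BMPR1B. In DPP4_neg cells with vehicle the 4 libraries gave 61.0, 51.6, 71.7 and 50.1 normalized counts, and with isoproterenol 4.05, 0.734, 3.15 and 1.31. All treated libraries lay far below all vehicle libraries, with 9 reads against 335 over the groups. The ratio of the 2 levels was 0.0377, with a 95% interval of 0.0171 to 0.0724 that covers counting error only. In the fit, which works on log2(normalized count + 1) and so understates changes of low genes, the fall was -4.28 ± 0.30 (SE, adjusted p = 3.03e-11). In DPP4_pos cells Bmp4 started low, at 10.8, 13.4, 7.09 and 10.1 normalized counts with vehicle, and stood at 20.2, 22.6, 17.5 and 20.7 with isoproterenol. The groups did not overlap, although they rested on 50 and 54 reads, and the rise was 0.93 ± 0.30 (adjusted p = 0.00687). The difference between the responses was 5.22 ± 0.42 (adjusted p = 6.92e-10). DPP4_neg therefore had the most Bmp4 of the 4 groups with vehicle and the least with isoproterenol. Bmp4 was lower in DPP4_pos than in DPP4_neg with vehicle, by -2.41 on the log2 scale (adjusted p = 3.20e-07), and 8.94 times as high in reads with isoproterenol (95% interval 4.38 to 20.6, counting error only). Bmp4 lies on chromosome 14, 46383520 to 46390669 on the minus strand of GRCm38 (GENCODE M21), and shares 89 exon bases with Gm15217 on the other strand. Whether the libraries kept strand is not given in the sources used here, so reads on those bases cannot be told apart.

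Bmp7, a ligand of the 60A type, was the member that separated the populations most. Not 1 read was found in the 4 DPP4_neg vehicle libraries, and 2, 2, 2 and 1 reads in the DPP4_neg libraries with isoproterenol. In DPP4_pos cells the libraries held 95.9, 95.9, 84.1 and 83.6 normalized counts with vehicle and 239, 216, 238 and 242 with isoproterenol. No library of DPP4_neg came near any library of DPP4_pos. Against a floor of 3 counts over the DPP4_neg group, Bmp7 was at least 168-fold higher in DPP4_pos with vehicle, counting error of the DPP4_pos reads left out. With isoproterenol it was 134-fold higher (95% interval 64.6 to 334, counting error only). Within DPP4_pos cells isoproterenol raised Bmp7 by 1.37 ± 0.22 on the log2 scale, 2.59-fold (adjusted p = 5.31e-06), and the groups did not overlap. In DPP4_neg cells the 7 reads with isoproterenol stood at 3.27 times the floor of 3 counts of the vehicle group. That ratio leaves out the counting error of the 7 reads, and no test is given for them. The comparison of the responses, -0.12 ± 0.31 (adjusted p = 0.756), rests on those 7 reads, and depends on how they are scaled. It was 0.88 with a pseudocount of 5 (adjusted p = 0.000313) and -2.67 with edgeR on reads (adjusted p = 0.0225), so no direction is given. Bmp7 lies on chromosome 2, 172868012 to 172940321, minus strand.

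Endothelial transcripts also differed in this direction. The summed level of 8 endothelial markers ran from 167 to 202 normalized counts in DPP4_neg with vehicle and from 1116 to 1172 in DPP4_pos with vehicle, and 5 of the 6 tested were higher in DPP4_pos. It ran from 172 to 225 in DPP4_neg with isoproterenol and from 1180 to 1313 in DPP4_pos with isoproterenol. None of the 8 markers was at 0 in a whole group. Tek made up most of the vehicle sum in DPP4_pos, with a mean of 1013, while Cdh5 averaged 37.1, Pecam1 34.7 and Cldn5 5.84. With isoproterenol Tek averaged 410 in DPP4_pos and Kdr 684, against 39.9 for Kdr with vehicle, so the make-up of the sum changed. The part of these transcripts in the Bmp7 result was not tested.

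Bmp2, the close relative of Bmp4, moved less. In DPP4_neg cells the libraries gave 42.7, 54.5, 53.2 and 34.5 normalized counts with vehicle and 25.9, 29.4, 25.2 and 17.1 with isoproterenol. The groups did not overlap, and Bmp2 fell by 0.90 on the log2 scale (SE 0.22, adjusted p = 0.00102). In DPP4_pos cells the groups overlapped, at 34.1, 49.8, 31.9 and 38.9 with vehicle and 39.3, 33.1, 21.9 and 39.5 with isoproterenol. The difference there was -0.22 ± 0.22 (adjusted p = 0.356), with a 95% interval of -0.67 to 0.23. The difference between the responses was 0.68 ± 0.31 and was not called (adjusted p = 0.0592), but single libraries and the scaling decided this. It was called under quantile normalization (1.0, adjusted p = 0.00701), and without DPP4_neg vehicle replicate 4 (0.81, adjusted p = 0.0301), DPP4_neg isoproterenol replicate 2 (0.77, adjusted p = 0.0402), DPP4_pos vehicle replicate 2 (0.81, adjusted p = 0.0321) or DPP4_pos isoproterenol replicate 3 (0.86, adjusted p = 0.0130). Between the populations Bmp2 differed by -0.25 with vehicle (adjusted p = 0.319, 95% interval -0.70 to 0.20) and by 0.43 with isoproterenol (adjusted p = 0.0789), which was called under quantile normalization (0.59, adjusted p = 0.0182) and without DPP4_neg isoproterenol replicate 2 (0.52, adjusted p = 0.0494) or DPP4_pos isoproterenol replicate 3 (0.61, adjusted p = 0.0129). Bmp2 lies on chromosome 2, 133552159 to 133562885, plus strand.

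Levels of different genes can be set side by side only per length, here as normalized count per kilobase of GENCODE M21 exon. On that scale the summed level of Bmp2, Bmp4 and Bmp7 was 39.1 ± 6.10 (SD, n = 4) in DPP4_neg and 37.8 ± 4.52 in DPP4_pos with vehicle, within the spread of the libraries. With isoproterenol the sum was 8.36 ± 1.78 in DPP4_neg and 76.6 ± 4.02 in DPP4_pos. The make-up differed more than the sum. With vehicle Bmp4 gave 66.7 ± 4.58% of the sum in DPP4_neg and 12.0 ± 1.74% in DPP4_pos, where Bmp7 gave 59.4 ± 4.21%. With isoproterenol Bmp2 was 82.4 ± 7.47% of what was left in DPP4_neg, and Bmp7 was 76.0 ± 3.34% in DPP4_pos. All 3 ligands were low next to their receptor and targets. Bmpr1a stood at 437 and 450 and Id3 at 2116 and 1680 per kilobase in DPP4_neg and DPP4_pos with vehicle.

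**Figure D2:**
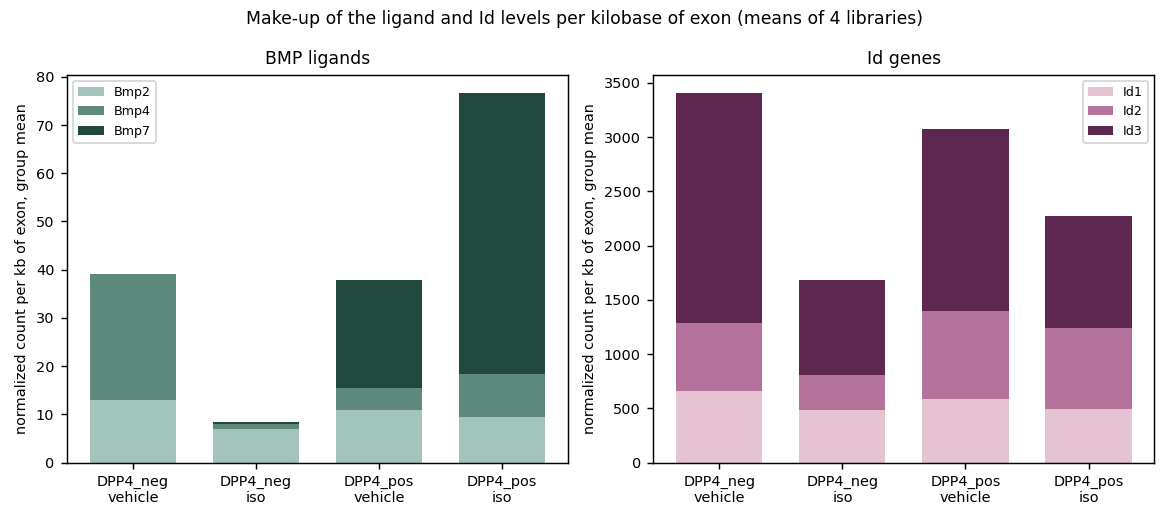
Group means of normalized count per kilobase of exon (vertical axes, starting at 0), stacked for Bmp2, Bmp4 and Bmp7 on the left and for Id1, Id2 and Id3 on the right, in the 4 groups (iso for isoproterenol). The ligand bars stand at 39.1 and 37.8 with vehicle and part to 8.36 in DPP4_neg and 76.6 in DPP4_pos with isoproterenol, while both Id bars become shorter.

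Grem1 encodes gremlin 1, a cystine-knot protein that binds BMP2, BMP4 and BMP7 outside the cell. It was mainly a transcript of DPP4_neg cells, at 229, 200, 185 and 182 normalized counts with vehicle against 46.6, 41.6, 31.0 and 35.5 in DPP4_pos cells. The populations did not overlap, and Grem1 was lower in DPP4_pos by -2.34 on the log2 scale, 5.07-fold (adjusted p = 2.18e-11). With isoproterenol DPP4_neg cells held 191, 149, 162 and 188, which overlapped their vehicle libraries. That difference of -0.20 ± 0.16 was not called (adjusted p = 0.272, 95% interval -0.54 to 0.13). DPP4_pos cells held 29.2, 26.1, 19.0 and 16.9 with isoproterenol, all below their vehicle libraries, and the fall was -0.75 ± 0.16 (adjusted p = 0.000198). Under quantile normalization the latter was -0.26 and lost its call (adjusted p = 0.135). The gap between the populations grew to -2.89 with isoproterenol, 7.42-fold (adjusted p = 4.59e-13). The difference between the responses, -0.55 ± 0.23, was called at adjusted p = 0.0406 with little to spare. It was no longer called without any one of 9 of the 16 libraries, 3 with vehicle and 2 with isoproterenol of DPP4_neg (vehicle replicates 2, 3 and 4, isoproterenol replicates 1 and 4) and 2 of each treatment of DPP4_pos (vehicle replicates 1 and 2, isoproterenol replicates 3 and 4), at adjusted p from 0.0578 to 0.0920, nor under DESeq2 (adjusted p = 0.0727), with a pseudocount of 5 (adjusted p = 0.0525) or with no filter (adjusted p = 0.0725). Under quantile normalization it was -0.18 (adjusted p = 0.514). Grem1 lies on chromosome 2, 113746164 to 113758646, minus strand.

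The sum of mural cell transcripts was also higher in DPP4_neg, as Grem1 was and, below, Smad6. The summed level of 8 mural markers ran from 103367 to 113524 normalized counts in DPP4_neg with vehicle, from 71810 to 77507 in DPP4_neg with isoproterenol, from 7634 to 8693 in DPP4_pos with vehicle and from 4944 to 5895 in DPP4_pos with isoproterenol. Nearly all of it was Acta2, smooth muscle actin, with a mean of 99429 in DPP4_neg and 6126 in DPP4_pos with vehicle. Rgs5, a pericyte marker, averaged 8.33 and 5.70 in the same groups, and Notch3 averaged 798 and 1053. Of the 8, 4 were lower and 1 higher in DPP4_pos with vehicle, and none was at 0 in a whole group. With isoproterenol 5 were lower and 3 higher in DPP4_pos. Those 3 were Rgs5, at means of 12.0 in DPP4_neg and 27.8 in DPP4_pos, Kcnj8, at 87.2 and 151, and Notch3, at 303 and 386. The part of these transcripts in the results was not tested.

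Bambi, whose product resembles a type I receptor without its kinase and takes the place of one in the receptor complex, rose in both populations. In DPP4_neg cells it went from 130, 149, 121 and 145 normalized counts with vehicle to 379, 330, 356 and 377 with isoproterenol. In DPP4_pos cells it went from 99.5, 88.4, 97.4 and 85.3 to 799, 713, 732 and 1020. Neither pair of groups overlapped. The rise was 1.4 ± 0.10 on the log2 scale in DPP4_neg, 2.64-fold (adjusted p = 3.26e-11), and 3.11 ± 0.10 in DPP4_pos, 8.65-fold (adjusted p = 9.83e-18). The rise was larger in DPP4_pos by 1.71 ± 0.14 (adjusted p = 6.84e-10). Bambi was thus lower in DPP4_pos with vehicle (-0.55, adjusted p = 4.13e-05) and higher with isoproterenol (1.16, adjusted p = 5.72e-10). A pseudogene copy listed as Bambi-ps1 held means of 5.36 to 7.37 normalized counts in the 4 groups. Reads that fit both copies cannot be told apart in this table.

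Bmpr1a, the type I receptor for BMP2 and BMP4, changed little. It fell in DPP4_neg cells from 2776 ± 108 (SD, n = 4) to 2334 ± 187 normalized counts, or -0.25 ± 0.04 on the log2 scale (adjusted p = 3.88e-05). It fell in DPP4_pos cells from 2855 ± 27.2 to 2574 ± 52.8, or -0.15 ± 0.04 (adjusted p = 0.00414). Neither pair of groups overlapped, with 2621 as the lowest vehicle library and 2522 as the highest treated one in DPP4_neg. The responses differed by 0.10 ± 0.06 (adjusted p = 0.162, 95% interval -0.03 to 0.23), which was called without DPP4_neg isoproterenol replicate 1 (0.14, adjusted p = 0.0448). Under quantile normalization the difference was called in the other direction (-0.18, adjusted p = 0.0163). With vehicle the populations differed by 0.04 (adjusted p = 0.426, 95% interval -0.05 to 0.13). With isoproterenol Bmpr1a was called higher in DPP4_pos by 0.14 (adjusted p = 0.00614) although the libraries overlapped, and quantile normalization turned this to -0.11 (adjusted p = 0.0269). Bmpr1a lies on chromosome 14, 34410734 to 34503341, minus strand, and shares 290 exon bases with the antisense gene Gm17110, whose reads cannot be told apart.

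Smad6 encodes an inhibitory SMAD that is switched on by BMP signals and blocks the type I receptors and SMAD1. It fell in both populations by about the same factor. In DPP4_neg cells it went from 2586, 2462, 2564 and 2608 normalized counts to 1394, 1429, 1369 and 1307. In DPP4_pos cells it went from 1085, 1208, 1321 and 1164 to 657, 676, 624 and 658. Neither pair overlapped. The change was -0.89 ± 0.05 in DPP4_neg, 1.86-fold lower (adjusted p = 3.47e-13), and -0.87 ± 0.05 in DPP4_pos, 1.82-fold lower (adjusted p = 2.56e-13). The responses differed by 0.03 ± 0.07 (adjusted p = 0.731), and the 95% interval of -0.11 to 0.17 bounds how far apart they could be. The populations differed more than the treatments. Smad6 was lower in DPP4_pos by -1.10 with vehicle (adjusted p = 8.58e-15) and by -1.07 with isoproterenol (adjusted p = 1.17e-14), without overlap. The order of the groups was DPP4_neg with vehicle, DPP4_neg with isoproterenol, DPP4_pos with vehicle and DPP4_pos with isoproterenol, and the ranges of the middle pair overlapped, at 1307 to 1429 and 1085 to 1321. Smad6 lies on chromosome 9, 63953076 to 64022059, minus strand.

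Id3 had the highest level per kilobase of the 10 members in all 4 groups, and fell further than Id1 and Id2 in both populations. The Id proteins are helix-loop-helix proteins without a DNA-binding region. In DPP4_neg cells Id3 went from 3714, 3679, 3889 and 3876 normalized counts with vehicle to 1487, 1665, 1640 and 1540 with isoproterenol. In DPP4_pos cells it went from 2947, 3058, 3120 and 2910 to 1866, 1901, 1935 and 1716. The fall was -1.26 ± 0.04 in DPP4_neg, 2.39-fold (adjusted p = 8.84e-17), and -0.70 ± 0.04 in DPP4_pos, 1.62-fold (adjusted p = 1.28e-12), with no overlap in either. The responses differed by 0.56 ± 0.06 (adjusted p = 5.59e-08). The populations accordingly changed order, since Id3 was lower in DPP4_pos with vehicle (-0.33, adjusted p = 5.21e-07) and higher with isoproterenol (0.23, adjusted p = 5.70e-05), a difference that was 0.03 under quantile normalization (adjusted p = 0.558). Id3 lies on chromosome 4, 136143497 to 136145755, plus strand.

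Id2 fell in DPP4_neg cells, and its responses differed between the populations. In DPP4_neg cells it went from 1509, 1624, 1600 and 1430 normalized counts with vehicle to 764, 849, 806 and 660 with isoproterenol, without overlap. That is -1.0 ± 0.06 on the log2 scale, 2.01-fold lower (adjusted p = 7.91e-12). In DPP4_pos cells the libraries overlapped, at 1878, 2042, 2140 and 1827 with vehicle and 1721, 1906, 1859 and 1793 with isoproterenol. The difference of -0.11 ± 0.06 was not called (adjusted p = 0.109), with a 95% interval of -0.25 to 0.02. A small fall was called under other settings, at -0.16 with TMM scaling (adjusted p = 0.0283), -0.16 with edgeR on reads (adjusted p = 0.0161) and -0.40 with quantile normalization (adjusted p = 9.68e-06), so its absence is not shown. The responses differed by 0.89 ± 0.09 (adjusted p = 2.87e-08). Id2 was higher in DPP4_pos with vehicle (0.35, adjusted p = 5.46e-05) and more so with isoproterenol (1.24, adjusted p = 1.46e-13). Id2 lies on chromosome 12, 25093799 to 25097140, minus strand.

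Id1, a BMP target in many cell types, fell in both populations by less than Id3. In DPP4_neg cells it went from 824, 727, 693 and 809 normalized counts with vehicle to 481, 574, 653 and 551 with isoproterenol. In DPP4_pos cells it went from 704, 710, 675 and 647 to 570, 622, 577 and 507. The groups did not overlap in either, and the fall was -0.44 ± 0.08 (adjusted p = 3.92e-05) and -0.27 ± 0.08 (adjusted p = 0.00334). The responses differed by 0.17 ± 0.11 (adjusted p = 0.182, 95% interval -0.06 to 0.40), which was called without DPP4_neg isoproterenol replicate 3 (0.24, adjusted p = 0.0416). With vehicle the populations differed by -0.16 (adjusted p = 0.0824). This was called without DPP4_neg vehicle replicate 3 (-0.20, adjusted p = 0.0380), without DPP4_neg isoproterenol replicate 1 (-0.16, adjusted p = 0.0494), and with only the groups compared in the fit (-0.16, adjusted p = 0.0215). With isoproterenol they differed by 0.02 (adjusted p = 0.865, 95% interval -0.15 to 0.18). Id1 lies on chromosome 2, 152736251 to 152737410, plus strand.

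Per kilobase, the sum of Id1, Id2 and Id3 went from 3406 ± 43.2 (SD, n = 4) to 1687 ± 123 in DPP4_neg and from 3078 ± 124 to 2272 ± 111 in DPP4_pos. Id3 gave 62.1 ± 1.16% of it in DPP4_neg with vehicle and 52.5 ± 1.32% with isoproterenol, and 54.6 ± 0.574% and 45.6 ± 0.928% in DPP4_pos. Id2 held 18.6 ± 1.25% and 18.7 ± 1.47% in DPP4_neg, within the spread of the libraries. In DPP4_pos its share was 26.2 ± 0.911% with vehicle and 32.9 ± 1.23% with isoproterenol, with no overlap.

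**Figure D3:**
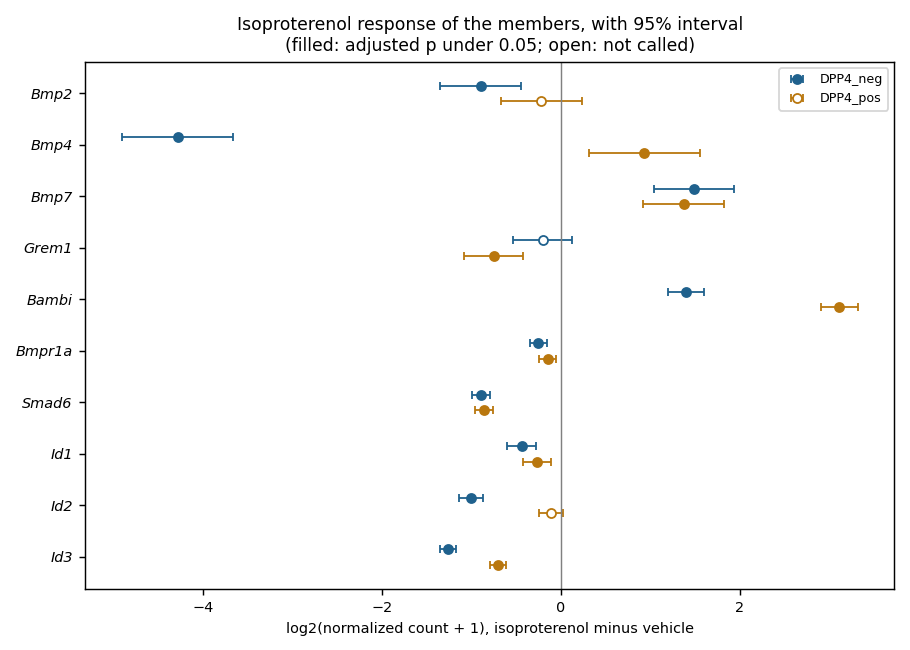
Change of log2(normalized count + 1) from vehicle to isoproterenol (horizontal axis) for each member, in DPP4_neg (blue) and DPP4_pos (brown), with 95% intervals from limma. Filled points were called and open ones were not. Bmp4 lies on opposite sides of 0, Bambi is farther to the right in DPP4_pos, and Id2 and Id3 are farther to the left in DPP4_neg.

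Set against one another, the responses of 5 of the 10 members differed between the populations. The change was higher, that is more positive, in DPP4_pos for Bmp4, Bambi, Id2 and Id3 and lower for Grem1, against 31.6% and 31% of all tested genes. The median difference of the members was 0.37, and -0.02 over all tested genes. That median includes Bmp7, whose difference depends on how its few DPP4_neg reads are scaled. With vehicle, Bmp7 and Id2 were higher in DPP4_pos and 5 members were lower (Bmp4, Grem1, Bambi, Smad6 and Id3), against 31.6% and 35% of all tested genes. All of those were without overlap, where 32.1% and 35.2% of tested genes were. With isoproterenol 6 members were higher in DPP4_pos (Bmp4, Bmp7, Bambi, Bmpr1a, Id2 and Id3) and Grem1 and Smad6 were lower, against 37.4% and 37% of all tested genes. Of those, 5 higher and 2 lower did not overlap, against 32.9% and 31%. Bmp7 is among the higher members in both comparisons, but it passed the filter only through DPP4_pos. Its calls and lack of overlap there are therefore no evidence about the set. The member medians were -0.29 with vehicle and 0.33 with isoproterenol, and -0.01 and 0.00 over all tested genes. The 4 groups enter these comparisons more than once, so that, for example, the DPP4_neg vehicle libraries are the controls of both the DPP4_neg response and the vehicle contrast.

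Over the 16 libraries, which fall into 4 groups, the members' log2 levels were closest for Id1 and Id3 (Pearson r = 0.88) and for Grem1 and Smad6 (r = 0.85) among pairs that moved together. Bmp7 ran against Grem1 (r = -0.98) and Smad6 (r = -0.89). These values describe the group means and are no test. Among 11400 genes with a mean of at least 50 normalized counts, the ones most like the members included Natd1 (r = 0.85) and C030006K11Rik (r = 0.81) for Bmp2, Rapgef1 (r = 0.97) and Gnai1 (r = 0.96) for Bmp4, and Eya4 (r = 0.996) and Sirpa (r = 0.995) for Bmp7. They were Piezo2 and Actg2 (both r = 0.99) for Grem1, Lamb1 and Adarb1 (both r = 0.99) for Bambi, and Ubr1 (r = 0.98) and Fam13b (r = 0.95) for Bmpr1a. For Smad6 they were Tgfb3 and Bok (both r = 0.995), for Id1 Smco4 (r = 0.89) and Il17d (r = 0.88), for Id2 Cds2 (r = 0.99), and for Id3 Arid5b (r = 0.99) and Amotl2 (r = 0.98).

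The wider pathway was taken from lists of 71 genes, of which 58 were tested and 48 of those were not members. Of these 48, 11 rose and 22 fell with isoproterenol in DPP4_neg, and 22 rose and 20 fell in DPP4_pos. Their median change was -0.09 in DPP4_neg and 0.05 in DPP4_pos, against -0.02 and -0.05 over all tested genes. The responses of 18 were higher and of 15 lower in DPP4_pos than in DPP4_neg. With vehicle 14 were higher and 21 lower in DPP4_pos, and with isoproterenol 20 were higher and 22 lower. The shares of all tested genes in these comparisons are those given above for the members. With isoproterenol 32.1% of all tested genes rose and 33.6% fell in DPP4_neg, and 39.4% rose and 43.3% fell in DPP4_pos. The same shares stand against the counts of each list below.

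Of 8 BMP and GDF ligands tested, 3 were called higher (Bmp7, on its 7 reads, among them) and 4 fell in DPP4_neg, and 5 rose and 1 fell in DPP4_pos. Besides Bmp4, 3 of them were called in opposite directions: Bmp6 at -1.21 ± 0.11 in DPP4_neg (adjusted p = 1.41e-09) and 0.34 ± 0.11 in DPP4_pos (adjusted p = 0.00574), Gdf10 at 0.21 ± 0.06 (adjusted p = 0.00603) and -0.21 ± 0.06 (adjusted p = 0.00554), and Gdf6. The DPP4_neg libraries of Gdf10 overlapped. Bmp8a rose in both populations, by 1.0 ± 0.07 in DPP4_neg (adjusted p = 3.45e-11) and by 1.03 ± 0.07 in DPP4_pos (adjusted p = 8.64e-12). With vehicle it stood at 73.8 and 134 per kilobase in DPP4_neg and DPP4_pos, above the sums of Bmp2, Bmp4 and Bmp7, 39.1 and 37.8. Bmp6, Gdf10 and Bmp8a fall outside the rule for named genes and were added after their values were seen. Gdf6, a ligand of the growth and differentiation factor group, went from 215 ± 16.8 to 152 ± 19.3 normalized counts in DPP4_neg (-0.51 ± 0.11, adjusted p = 0.000549) and from 85.5 ± 11.5 to 262 ± 37.9 in DPP4_pos (1.6 ± 0.11, adjusted p = 1.91e-11). The responses differed by 2.11 ± 0.16 (adjusted p = 2.82e-10).

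Of 10 receptors and co-receptors, 1 rose and 7 fell in DPP4_neg, and 3 rose and 6 fell in DPP4_pos. Bmpr1b, the other BMP2 and BMP4 type I receptor, was called lower in DPP4_neg, with overlapping libraries (173 ± 13.7 to 140 ± 17.0, -0.30 ± 0.11, adjusted p = 0.0234), and rose in DPP4_pos from 45.1 ± 7.42 to 145 ± 6.46 (1.68 ± 0.11, adjusted p = 7.36e-12). Acvrl1, the type I receptor for BMP9 and BMP10, fell by -0.82 ± 0.04 in DPP4_neg (adjusted p = 2.21e-13) and by -1.47 ± 0.04 in DPP4_pos (adjusted p = 2.58e-18).

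Of 14 secreted antagonists and binders, 6 rose and 5 fell in DPP4_neg, and 5 rose and 8 fell in DPP4_pos. Fst, follistatin, which binds activins most tightly and some BMPs, had the largest difference between the responses among the list genes named here other than members. It went from 4764 ± 206 to 930 ± 41.6 normalized counts in DPP4_neg (-2.36 ± 0.05, adjusted p = 4.45e-20) and from 1547 ± 34.4 to 2958 ± 267 in DPP4_pos (0.93 ± 0.05, adjusted p = 2.60e-13), a difference of 3.29 ± 0.07 (adjusted p = 1.25e-18). Nog, noggin, rose in both, from 134 ± 15 to 536 ± 46.2 in DPP4_neg and from 38.1 ± 5.03 to 109 ± 10.4 in DPP4_pos.

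Chrdl1, a chordin-like BMP binder, was higher in DPP4_pos, at 5974 ± 240 against 1478 ± 212 in DPP4_neg with vehicle (2.02, adjusted p = 1.08e-16). Fstl3, a follistatin-like protein, was lower in DPP4_pos with vehicle, at 103 ± 4.94 against 431 ± 4.59 in DPP4_neg (-2.06, adjusted p = 3.58e-14). Kcp, a chordin-like protein, was higher in DPP4_pos with vehicle by 1.58 (adjusted p = 1.97e-12), and fell there with isoproterenol by -0.55 ± 0.09 (adjusted p = 1.44e-05). Dand5, of the DAN family, fell in DPP4_pos from 65.2 ± 2.71 to 25.6 ± 4.60 (-1.33 ± 0.15, adjusted p = 4.71e-08) and differed by -0.03 ± 0.15 in DPP4_neg (adjusted p = 0.880).

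Of 13 transducers, intracellular inhibitors and the pseudoreceptor, a list that also holds the members Smad6 and Bambi, 2 rose and 6 fell in DPP4_neg, and 9 rose and 4 fell in DPP4_pos. Smad9, a receptor-regulated SMAD, went from 281 ± 7.22 to 76.0 ± 8.28 normalized counts in DPP4_neg (-1.88 ± 0.11, adjusted p = 1.85e-12) and from 297 ± 10.8 to 24.7 ± 4.45 in DPP4_pos (-3.55 ± 0.11, adjusted p = 9.73e-18). Skil, a repressor of SMAD-driven transcription, differed by -0.07 ± 0.09 in DPP4_neg (adjusted p = 0.476) and rose in DPP4_pos from 335 ± 8.17 to 931 ± 85.9 (1.47 ± 0.09, adjusted p = 5.92e-13). Zfp423, a zinc finger protein that binds BMP SMADs and marks committed preadipocytes, fell in DPP4_pos from 214 ± 12.3 to 54.8 ± 7.54 (-1.95 ± 0.11, adjusted p = 1.95e-13), and in DPP4_neg differed by 0.18 ± 0.11 (adjusted p = 0.141). Its responses differed by -2.14 ± 0.15 (adjusted p = 8.40e-11).

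Of 13 BMP target genes, which include the members Id1, Id2, Id3, Smad6 and Bambi, 1 rose and 8 fell in DPP4_neg, and 5 rose and 6 fell in DPP4_pos. The median change was -0.57 and -0.11, against -0.02 and -0.05 over all tested genes. Id4, the remaining Id gene, fell from 1117 ± 45.4 to 261 ± 26.8 normalized counts in DPP4_neg (-2.10 ± 0.08, adjusted p = 5.96e-16) and from 293 ± 27.4 to 91.3 ± 6.81 in DPP4_pos (-1.67 ± 0.08, adjusted p = 1.47e-14). Atoh8, a helix-loop-helix factor, fell in both, by -1.86 ± 0.07 (adjusted p = 3.84e-16) and -1.79 ± 0.07 (adjusted p = 3.40e-16), and the responses differed by 0.08 ± 0.10 (adjusted p = 0.513).

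Of the 3 E proteins that Id proteins bind, Tcf4 moved most. Tcf3 ran between 1230 and 1315 normalized counts in group means and was called in neither population (-0.07 ± 0.05, adjusted p = 0.197, and 0.05 ± 0.05, adjusted p = 0.321). Tcf4 rose in DPP4_neg from 2368 ± 55.9 to 3049 ± 120 (0.36 ± 0.04, adjusted p = 8.39e-09) and fell in DPP4_pos from 3466 ± 59.8 to 2383 ± 93.9 (-0.54 ± 0.04, adjusted p = 4.46e-12). Its responses differed by -0.90 ± 0.05 (adjusted p = 1.51e-12). Tcf12 was called lower in DPP4_neg, with overlapping libraries (-0.15 ± 0.05, adjusted p = 0.00851), and not in DPP4_pos (0.03 ± 0.05, adjusted p = 0.525).

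**Figure D4:**
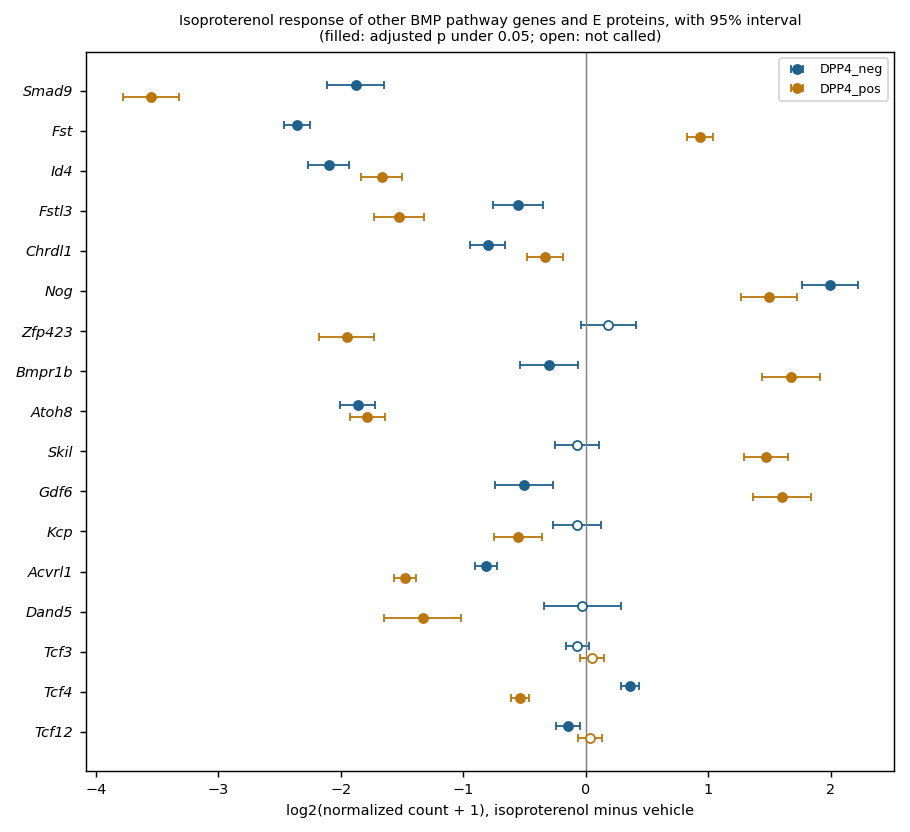
Change of log2(normalized count + 1) from vehicle to isoproterenol (horizontal axis) for further genes of the BMP pathway lists and 3 E proteins, in DPP4_neg (blue) and DPP4_pos (brown), with 95% intervals from limma. Filled points were called and open ones were not. Fst, Bmpr1b, Gdf6 and Tcf4 lie on opposite sides of 0, while Smad9, Id4 and Atoh8 fell and Nog rose in both.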

How the data were processed

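RNA of 16 libraries was measured. The labels' protocols name the NEBNext Ultra II RNA kit. The deposited values are a signal, gene counts that the authors divided by a size factor per library. Per the submitters' processing notes, the tools were DESeq2 1.6.3, featureCounts 1.4.6, HISAT2 2.0.1 and, for trimming by its name, Trim Galore 0.4.1, on mouse build GRCm38. Their settings and order were not stated there. Every value was a whole multiple of the library's step (100% of 280334 values above 0, within 0.001), so reads were recovered. Entries without a symbol, 958 of 27179, held 0.0926% of the normalized counts, and 26 symbols turned into dates were restored.

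Limma 3.58.1 (R 4.3.3) was fitted with a mean-variance trend to log2(normalized count + 1) of 14005 genes in all 16 libraries, with Benjamini-Hochberg adjustment and a threshold of 0.05. Genes needed 10 normalized counts in 4 libraries. Where a group held at most 10 reads, ratios of reads with exact 95% intervals, or lower bounds against 3 counts, were used. The bounds leave out the counting error of the group with reads. The fit was tested on simulated data. Alternatives were pseudocounts of 0.5 and 5, no filter, TMM scaling, quantile normalization, edgeR 4.0.16 and DESeq2 1.42.0 on recovered reads, only the groups compared, a replicate block and leaving out each library. The members and lists were chosen with earlier results of these data known. Besides the members, the 15 list genes with the largest called change and a mean of at least 50 were named, with all E proteins, and the 2 genes most like each member; 2 genes these rules pick are not reported here. Same-numbered libraries did not deviate together, so replicate numbers were not used as pairs.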

Additional observations from a re-analysis of the deposited data

Results flagged for a closer look

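The response to isoproterenol differed between the populations by a test of the difference itself for 5 members. The DPP4_pos response minus the DPP4_neg response was 5.22 on the log2 scale for Bmp4, 1.71 for Bambi, 0.89 for Id2, 0.56 for Id3 and -0.55 for Grem1. Of all tested genes, 31.6% had a higher and 31% a lower response in DPP4_pos. The Grem1 call was lost without any one of 9 libraries, under DESeq2 (adjusted p = 0.0727) and under quantile normalization (-0.18, adjusted p = 0.514). The Bmp4 value rests on 9 reads in DPP4_neg with isoproterenol.

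A sample stood far from the others of its group for Bmp7 in 2 of 40 group and gene combinations. In DPP4_neg with isoproterenol the gap of the highest library, 3.15 normalized counts against 1.31 to 1.62, was 0.833 of the range. The 4 libraries held 2, 2, 2 and 1 reads. The highest one had 2 and the lowest size factor of its group, 0.634. In DPP4_pos with isoproterenol the gap of the lowest library, 216 against 238 to 242, was 0.841 of the range. Both exceed the 95% critical value of Dixon for 4 samples, and chance flags about 1 in 20 groups.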

How the results depend on the processing

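The numbers of genes, pathway genes and members called in the 5 comparisons stayed within 1.5 times the reported counts under all alternatives run, and leaving out single libraries gave 4 to 6 members called for the difference between responses, 5 as reported. Over members and alternatives, 1191 values kept direction and call, 19 gained a call, 15 lost one and 15 changed sign. Under quantile normalization the sign changed for Bmp2 in DPP4_pos (0.31), for the difference between responses of Bmp7 (0.50), Bmpr1a (-0.18) and Smad6 (-0.025), and for DPP4_pos against DPP4_neg with isoproterenol of Bmpr1a (-0.11) and Id1 (-0.034). With TMM scaling it changed for the difference between responses of Smad6 (-0.022) and for Id1 with isoproterenol (-0.022), and with edgeR for the same values (-0.030 and -0.0099). With a pseudocount of 5 the Bmp7 difference was 0.88. Leaving out single libraries gave ranges of -0.21 to 0.071 for the Bmp7 difference, -0.016 to 0.078 for Smad6 and -0.059 to 0.088 for Id1 with isoproterenol. The cause was not tested. Apart from Bmpr1a and Bmp7, none of these values was called. Replicate numbers were not used as pairs: same-numbered libraries correlated in their deviations by r from -0.13 to 0.13. These values do not settle whether the libraries were paired. With the replicate number as a replicate block, the Id2 difference in DPP4_pos was called (-0.11, adjusted p = 0.0175), 9 members were called in DPP4_pos in place of 8, and no other member's call changed. Depth limits Bmp4 (9 reads) and Bmp7 (0 and 7 reads) in DPP4_neg.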
